A study of Mus musculus with 6 samples.

Results

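MHC class II antigen presentation was followed through 7 genes in the cortex of 5XFAD mice with and without a transplant of human interneurons: the antigen-binding chains H2-Aa, H2-Ab1 and H2-Eb1, the invariant chain Cd74, the peptide-loading chaperones H2-DMa and H2-DMb1, and the regulator Ciita. They were found by gene name, and all 7 are among the 54532 gene rows of the count and FPKM tables. All 7 had reads in every library and passed the filter on low counts. The set was chosen by role with the levels of these genes in the cell-treated and control libraries already known, so those levels and their differences are given as a description, with no test.

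All mice were 5XFAD, a line that carries mutant human transgenes of familial Alzheimer's disease under mouse Thy1 promoter elements, which act mainly in neurons, and that deposits amyloid in the brain. Control libraries 1 to 3 came from 5XFAD cortex with the treatment label NC, and cell-treated libraries 1 to 3 from 5XFAD cortex after the cell therapy, which the series title describes as GABAergic interneurons derived from human induced pluripotent stem cells. The sources used here do not give the age and sex of the mice, the injection site, any sham injection or any immunosuppression, and no group without the transgenes was analysed here. The labels call the cell type neural, although markers of microglia and endothelium were present in every library. The count table names the control columns for the disease and not as controls, so their group is an inference, on which the sign of every difference rests. The design text uses control for the treated mice, the reverse of the sample labels followed here. Where 3 values are given for a group, they are those of replicates 1, 2 and 3 in that order.

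MHC class II molecules are pairs of an alpha and a beta chain that display peptides from the endosome to CD4 T cells. The invariant chain fills the groove of new class II pairs and guides them to the endosome, where proteases cut it down and the DM heterodimer exchanges the remaining fragment for peptide, while the DO heterodimer restrains DM. Transcription of these genes depends on the coactivator Ciita, which joins the RFX complex, CREB and NF-Y on a shared promoter module. In brain tissue class II is known from microglia around plaques and from macrophages and dendritic cells at the borders of the brain. In bulk cortex, fewer cells of a type and less RNA per cell cannot be told apart.

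Sequences upstream of these genes, where available, were searched for letters of the module that class II promoters share. This module is an X box bound by RFX followed by a Y box, an inverted CCAAT motif bound by NF-Y. RefSeq promoter sequences (GRCm38.p6, 250 bases before to 50 after the gene start) matched 4 of the 7 members: H2-Aa, H2-Eb1, H2-DMb1 and, with both of its listed starts, H2-DMa. They were searched on both strands for the X half-site GNAAC with the Y core ATTGG starting 30 to 33 bases after it, a spacing chosen after these promoters had been read. The pair was found upstream of 3 of the 4 matched members, in the orientation of the gene, and in 116 of all 32851 promoters of the same length on the strand of the gene (0.353%), or 234 on either strand (0.712%). It was not found in either H2-DMa window. The windows of 4 genes of the region are shown to compare members with 2 relatives, H2-Ob, the beta chain of DO, and H2-Eb2, a beta chain gene with no reads here; capitals mark the GNAAC and ATTGG letters, and each is written on the strand of its gene.
H2-Aa: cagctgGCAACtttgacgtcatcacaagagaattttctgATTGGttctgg
H2-Eb1: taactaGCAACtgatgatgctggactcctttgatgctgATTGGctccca
H2-Ob: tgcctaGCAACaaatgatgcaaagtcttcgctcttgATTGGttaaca
H2-Eb2: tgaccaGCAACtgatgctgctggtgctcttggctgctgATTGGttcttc
The H2-Aa window is chr17:34287861-34287910 on the minus strand, and its Y core starts 33 bases after its X half-site. On the plus strand, the H2-Eb1 window is chr17:34305770-34305818 with 32 bases between the starts, the H2-Ob window chr17:34238812-34238858 with 30 and the H2-Eb2 window chr17:34325537-34325585 with 32. The X half-site begins 81 bases before the RefSeq start in H2-Aa, 91 in H2-Eb1, 87 in H2-Ob and 132 in H2-Eb2. H2-DMb1 and H2-Oa, the alpha chain of DO, also hold the pair, with 33 bases between the starts in each, but there it overlaps an annotated exon of the same gene. Of 9 matched genes of class I presentation, 0 hold it. The spacing was set after the class II promoters had been read, so this does not show that class I promoters lack such a module. A match describes letters and not a bound site.

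One library of each group stood apart. Cell-treated library 3 had a mean correlation of 0.936 with the other 5 across genes, against 0.963 to 0.969 for the rest. Control library 3 held the highest level of all 10 striatal projection neuron markers. Their sum was 1814 CPM there, against 340 to 720 in the other 5. For 5 of these 10 markers, every cell-treated library lay below every control, beside 4.30% of all genes. CPM, the read count scaled to a common library total with TMM factors, is the unit of these levels, and total counts ran from 14221519 to 16696463 per library. Markers of cortical excitatory neurons were present in every library, with Slc17a7, the cortical vesicular glutamate transporter, at 844 to 1409 CPM. The quasi-likelihood test of edgeR, run on 17042 genes, gave 0 genes (0.00%) with an adjusted p under 0.05 and, at an unadjusted p under 0.05, 180 lower (1.06%) and 160 higher (0.939%) in cell-treated libraries. DESeq2 called 11 of 17009 (0.0647%). With 3 libraries per group, p-values weigh each group difference against the estimated spread between these libraries.

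The antigen-binding chains and the invariant chain had lower levels in cell-treated than in control cortex, by a factor of 2.33 to 2.56 in the fit, whereas the DM chaperones and Ciita differed by less than their standard errors with all 6 libraries. None of the 7 was called by edgeR, beside 0.00% of all genes, and none by DESeq2, beside 0.0647%. Of the 7, 6 had a log2 fold change below 0, as did 49.8% of all genes tested. The median log2 fold change of the 7 was -1.22, and that of all genes tested was 0.0013.

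Cd74 (ENSMUSG00000024610, chromosome 18, 60803848 to 60812646) had the highest FPKM of the 7 in every library. On the CPM scale it was at 42.8, 72.5 and 95.6 CPM in controls, against 22.0, 38.3 and 30.1 CPM with transplanted cells. Every cell-treated library lay below every control, by a gap of 38.3 to 42.8 CPM between the nearest. Cd74 was the only member whose groups did not overlap, a pattern that 4.30% of all genes tested showed in the same direction. The mean was 70.3 ± 26.5 CPM in controls and 30.1 ± 8.17 CPM with transplanted cells (SD, n = 3 in each group). The fitted difference was -1.22 ± 0.324 (log2 fold change, SE). Without control library 3 the log2 fold change was -0.94, and without control library 1 it was -1.48.

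H2-Aa (ENSMUSG00000036594, chromosome 17, 34282744 to 34287827), the alpha chain of the I-A molecule, was at 10.1, 18.9 and 22.8 CPM in controls. With transplanted cells it was at 6.65, 10.5 and 3.17 CPM. The groups overlapped only through cell-treated library 2, which lay just above control library 1, and cell-treated library 3 was the lowest of all. The mean was 17.3 ± 6.53 CPM in controls and 6.76 ± 3.65 CPM with transplanted cells (SD, n = 3 in each group), and the fitted difference -1.35 ± 0.468 (log2 fold change, SE).

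H2-Ab1 (ENSMUSG00000073421, chromosome 17, 34263209 to 34269418), the beta chain that pairs with H2-Aa, was at 9.60, 17.8 and 24.99 CPM in controls. It was at 5.58, 9.998 and 5.72 CPM with transplanted cells. As for H2-Aa, control library 1 and cell-treated library 2 lay close together, and control libraries 2 and 3 stood above all others. The log2 fold change was -1.30 ± 0.400 (SE), from means of 7.10 ± 2.51 and 17.5 ± 7.70 CPM (SD, n = 3 each).

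H2-Eb1 (ENSMUSG00000060586, chromosome 17, 34305877 to 34316199), the beta chain of the I-E molecule, was at 5.59, 16.1 and 16.2 CPM in controls. It was at 5.77, 6.55 and 3.23 CPM with transplanted cells. Control library 1 lay below 2 of the 3 cell-treated libraries, and only control libraries 2 and 3 stood above all of them. The log2 fold change was -1.29 ± 0.460 (SE), from means of 5.19 ± 1.73 and 12.7 ± 6.11 CPM (SD, n = 3 each). The matching alpha chain is annotated as the pseudogene H2-Ea-ps, which had 3 reads in all, each of them in cell-treated library 1.

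H2-DMa (ENSMUSG00000037649, chromosome 17, 34135182 to 34139101), the alpha chain of DM, was at 13.7, 15.4 and 16.0 CPM in controls. It was at 9.72, 10.5 and 17.7 CPM with transplanted cells. Cell-treated libraries 1 and 2 lay below all controls and cell-treated library 3 above all of them. The log2 fold change was -0.25 ± 0.274 (SE), and -0.57 without cell-treated library 3.

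H2-DMb1 (ENSMUSG00000079547, chromosome 17, 34153072 to 34160230), its beta partner, was at 4.42, 4.21 and 3.96 CPM in controls. It was at 3.26, 3.24 and 7.03 CPM with transplanted cells. The pattern was that of H2-DMa: cell-treated library 3 was the highest of the 6 and the other cell-treated libraries were the lowest. The log2 fold change of 0.11 ± 0.382 (SE) turned to -0.37 without cell-treated library 3. The neighbouring gene H2-DMb2 is a close paralog with 50 reads in all, so how reads were divided between the pair is uncertain.

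Ciita (ENSMUSG00000022504, chromosome 16, 10480059 to 10528418) was at 2.90, 2.31 and 2.17 CPM in controls. It was at 1.82, 3.58 and 0.622 CPM with transplanted cells. The highest and the lowest value were both in cell-treated libraries, and the lowest rested on 10 reads. The log2 fold change was -0.30 ± 0.580 (SE), and 0.13 without cell-treated library 3. Ciita overlaps Dexi on the opposite strand, and whether the counting used strand is not stated, so how many of its 201 reads come from Dexi cannot be told apart.

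**Figure D1:**
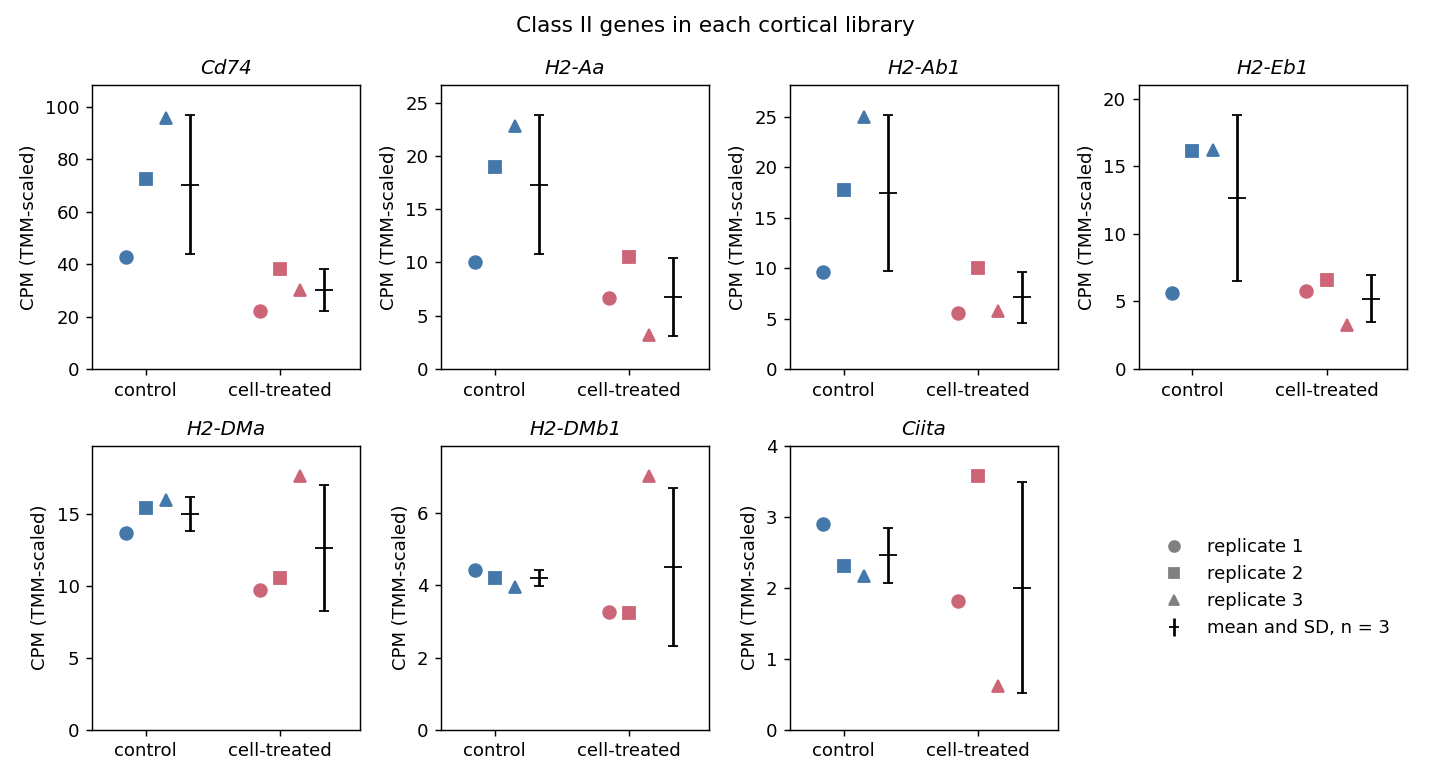
Level of each class II gene in CPM (vertical axis, linear from 0) in the control and cell-treated libraries; symbols mark the replicate number and the black bar the mean and SD of 3 libraries. Cd74 is the only gene with every cell-treated library (22.0 to 38.3 CPM) below every control (42.8 to 95.6 CPM), and cell-treated library 3 is the highest for H2-DMa and H2-DMb1 and the lowest for H2-Aa, H2-Eb1 and Ciita.

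With single libraries left out, Cd74, H2-Aa, H2-Ab1 and H2-Eb1 stayed lower in the cell-treated group in every case. The log2 fold change ran from -1.48 to -0.94 for Cd74, from -1.81 to -1.02 for H2-Aa, from -1.62 to -0.95 for H2-Ab1 and from -1.64 to -1.04 for H2-Eb1. Without both control library 3 and cell-treated library 3, the values were -0.94 for Cd74, -0.76 for H2-Aa and -0.82 for H2-Ab1 and for H2-Eb1. In the same fit H2-DMa was at -0.52 and H2-DMb1 at -0.41, so that all 6 chains and chaperones had lower values, and Ciita was at 0.046.

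**Figure D2:**
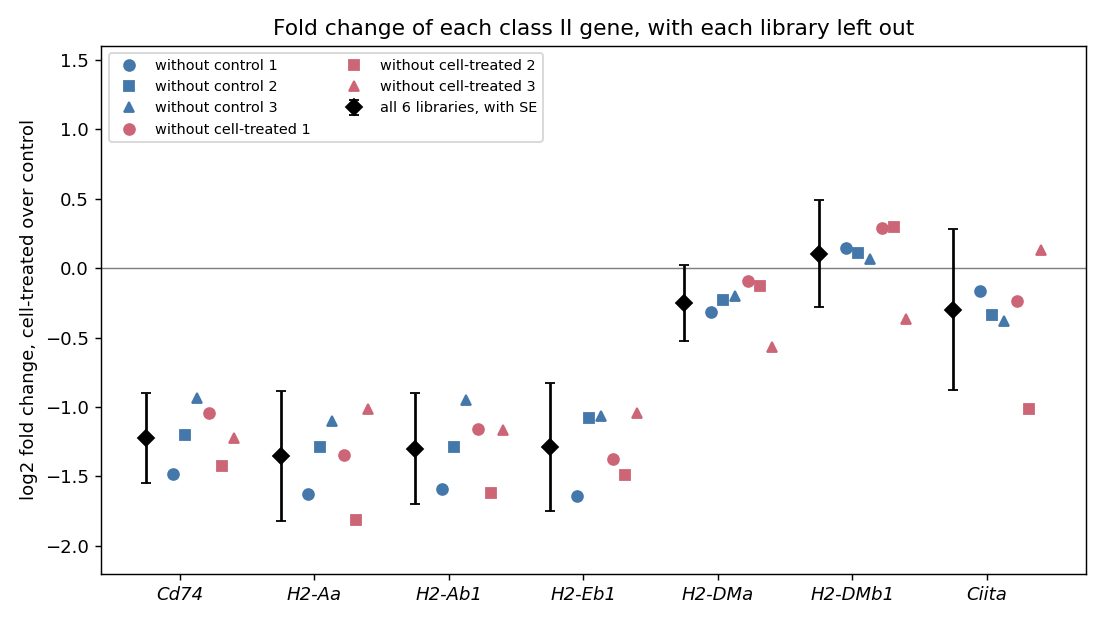
Log2 fold change of cell-treated over control libraries (vertical axis) for each class II gene, from all 6 libraries with its SE (black) and with each library left out (coloured symbols). The chains and Cd74 stay between -1.81 and -0.94, whereas H2-DMb1 and Ciita cross 0 when cell-treated library 3 is left out.

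On the deposited FPKM scale, which divides by gene length and so allows levels of different genes to be compared, Cd74 was at 49.5 ± 18.7 FPKM in controls (SD, n = 3). H2-Eb1 at 10.6 ± 5.15, H2-Ab1 at 10.6 ± 4.69, H2-Aa at 9.16 ± 3.48 and H2-DMa at 9.09 ± 0.755 FPKM followed, with overlapping ranges of mean ± SD. H2-DMb1 at 2.80 ± 0.147 and Ciita at 0.256 ± 0.0392 FPKM were the lowest. In cell-treated libraries Cd74 was at 21.4 ± 5.80 FPKM, and H2-DMa came next at 7.73 ± 2.73. H2-Eb1 at 4.38 ± 1.44, H2-Ab1 at 4.34 ± 1.52, H2-Aa at 3.61 ± 1.94 and H2-DMb1 at 3.05 ± 1.499 FPKM had overlapping ranges of mean ± SD, and Ciita was at 0.210 ± 0.156 FPKM. Cd74 was thus the highest and Ciita the lowest in both groups. By group means, H2-DMa stood below the chains in controls and above them with transplanted cells. Control library 1 did not follow this order. There H2-DMa was at 8.23 FPKM, above H2-Aa at 5.32, H2-Ab1 at 5.79 and H2-Eb1 at 4.67 FPKM.

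Ratios of FPKM within a library showed how the members varied against each other. H2-Aa over H2-Ab1, both chains of I-A, was 0.918, 0.929 and 0.798 in controls, against 1.04, 0.915 and 0.484 with transplanted cells. Cell-treated library 3, where H2-Aa had 51 reads, was the lowest, and the other 5 lay between 0.798 and 1.04. H2-DMa over H2-DMb1 was between 2.27 and 3.65 in all 6 libraries. H2-DMa over H2-Aa was 1.55, 0.931 and 0.800 in controls and 1.67, 1.15 and 6.36 with transplanted cells, so the chaperone far exceeded the chain in cell-treated library 3 only. Cd74 over the sum of the 3 chains was 1.90, 1.49 and 1.65 in controls and 1.32, 1.58 and 2.70 with transplanted cells.

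Genes that act beside the members were taken from 4 lists with 58 genes, of which 48 were tested. None was called by edgeR, beside 0.00% of all genes, the smallest adjusted p was 0.999, and DESeq2 called 0. At an unadjusted p under 0.05, 1 of the 48 was higher (March1) and 1 lower (H2-Ob), beside 0.939% and 1.06% of all genes. The groups did not overlap for 2 lower genes (H2-Ob and Cd4) and 2 higher genes (Nfyc, an NF-Y subunit, and March1), beside 4.30% of all genes in each direction.

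The list of loading and endosomal processing held DO, other class II genes and the proteases of the endosome. Of 11 genes 8 were tested, 6 above and 2 below 0, and their median log2 fold change was 0.22. It was -0.30 without cell-treated library 3. H2-Ob, the beta chain of DO, was at 3.94, 3.51 and 3.26 CPM in controls, against 1.94, 2.36 and 1.87 CPM with transplanted cells. Every cell-treated library lay below every control, with a log2 fold change of -0.79 ± 0.314 (SE) that did not pass the test (edgeR adjusted p 0.999). H2-Ob over H2-DMb1 on the FPKM scale was 0.387 to 0.419 in controls and 0.281, 0.343 and 0.125 with transplanted cells. H2-Oa was at 0.828 to 1.89 CPM in controls and 0.690 to 1.62 CPM in cell-treated libraries, which overlapped. H2-Eb2, whose upstream sequence is shown above, had 0 reads in every library, which allows up to 0.187 to 0.210 CPM per library for counting error alone (3 reads).

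Ifi30, the thiol reductase that unfolds antigens in the endosome, reached 26.7 CPM in cell-treated library 3, against 3.04 to 7.11 CPM in the other 5 libraries. Ctss, the protease that trims the invariant chain in antigen-presenting cells, was at 562 CPM there and at 179 to 282 elsewhere. Lgmn, an endosomal protease that cuts after asparagine, was at 470 CPM there and at 131 to 172 elsewhere. Cell-treated library 3 was the highest of the 6 libraries for 6 of the 8 tested genes of this list, beside 28.7% of all genes. Among the members it was the highest for 2 of 7, H2-DMa and H2-DMb1, a share near that of all genes.

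The list of class II transcription and turnover held 21 genes, all tested, 15 above and 6 below 0, with a median log2 fold change of 0.10. Rfx5, an RFX subunit whose loss in humans causes class II deficiency, was at 14.4 to 19.4 CPM in controls and 14.4 to 18.1 in cell-treated libraries. Its log2 fold change was -0.092 ± 0.209 (SE). Irf1, which carries the interferon-gamma signal to the Ciita promoter, had a log2 fold change of -0.054 ± 0.278 (SE). Ifng itself had 1 read in all 6 libraries. March1, a ubiquitin ligase that sends class II molecules for degradation, was at 17.5, 22.1 and 18.6 CPM in controls, against 22.1, 27.3 and 32.5 CPM with transplanted cells. The cell-treated libraries lay above the highest control, the nearest by less than 0.1 CPM, with a log2 fold change of 0.49 ± 0.209 (SE) that did not pass the test (edgeR adjusted p 0.999).

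The list of CD4 T cells and costimulation had 8 of 15 genes tested, 3 above and 5 below 0, with a median log2 fold change of -0.081. Leaving out cell-treated library 3 gave -0.42, and leaving out control library 1 gave 0.15. Cd4, the coreceptor for class II, which myeloid cells can also express, was at 3.45, 5.33 and 7.99 CPM in controls. It was at 1.88, 3.11 and 0.249 CPM with transplanted cells. Its order across libraries was close to that of the chains, with control library 3 highest and cell-treated library 3 lowest, and its log2 fold change of -1.68 ± 0.728 (SE) did not pass the test (edgeR adjusted p 0.999). Cd3e, a chain of the T cell receptor complex, was at most at 0.314 CPM in any library. Cd86, a costimulatory ligand, had a log2 fold change of 0.43 ± 0.325 (SE).

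Class I presentation, which shows cytosolic peptides to CD8 T cells, had 11 genes tested, 7 above and 4 below 0, and their median log2 fold change was 0.15. It was -0.22 without cell-treated library 3, which was the highest library for 8 of the 11, beside 28.7% of all genes. B2m, the class I light chain, was at 457 CPM there and at 166 to 261 elsewhere, and H2-K1, a class I heavy chain, at 181 CPM and at 63.7 to 112. Cell-treated library 3 thus held the highest level of most class I genes. Of the 7 members it was the highest only for the 2 DM genes, near the share of all genes. It was the lowest for H2-Aa, H2-Eb1 and Ciita. The difference between the class I and the class II genes was not tested.

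**Figure D3:**
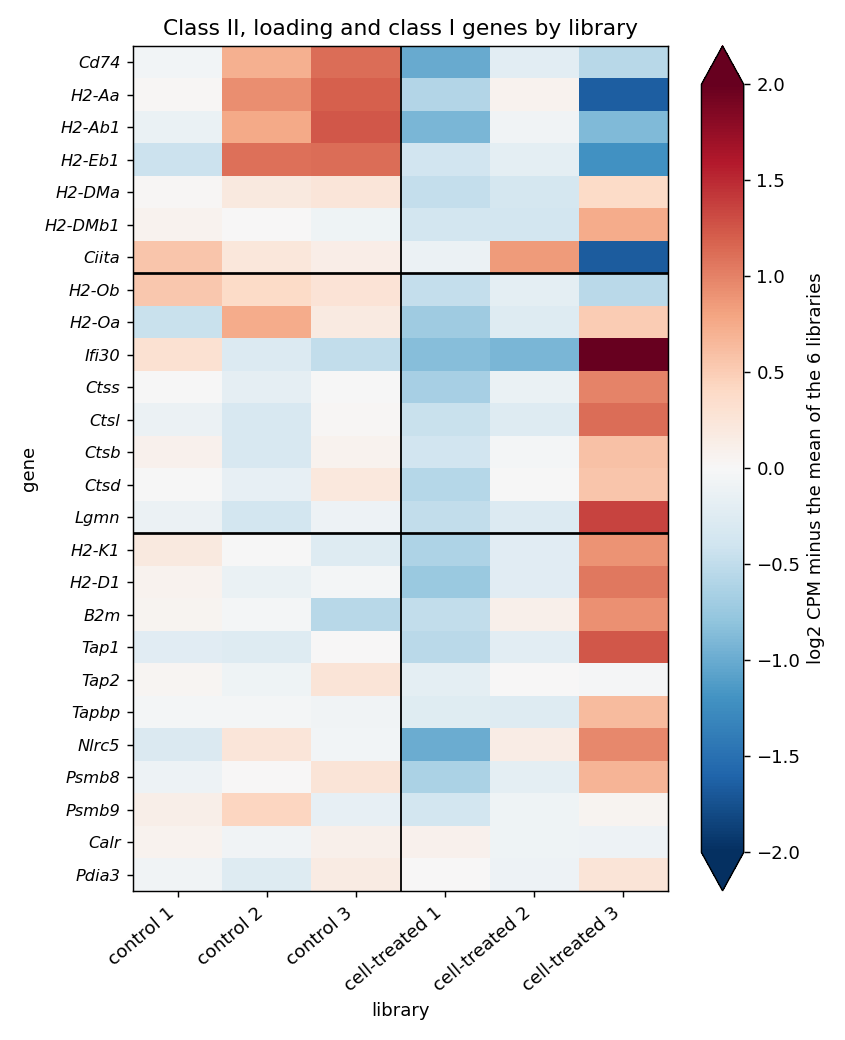
Deviation of log2 CPM from each gene's mean over 6 libraries (colour, red higher and blue lower, limited to 2 in each direction) for the class II members, the tested loading and processing genes and the class I genes (rows) in each library (columns). The top 4 rows are highest in control libraries 2 and 3, with H2-Eb1 at 16.1 and 16.2 CPM there, whereas most lower rows are highest in cell-treated library 3, where Ifi30 reaches 26.7 CPM.

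Of the members, 5 lie in the class II region of chromosome 17, in a stretch of 247.9 kb from H2-Oa to H2-Eb2 (34092340 to 34340229, as deposited). This stretch held 15 protein-coding genes, of which 12 were tested. The 7 tested genes that are no members had a median log2 fold change of -0.14, 2 higher and 5 lower. Tap1, a subunit of the class I peptide transporter, was at 0.54 ± 0.452, and Brd2, a chromatin reader at the other end of the stretch, at 0.10 ± 0.181 (log2 fold change, SE). With all 6 libraries, H2-Ob, H2-Ab1, H2-Aa and H2-Eb1 at the distal end ran from -1.35 to -0.79, and the 8 tested genes between H2-Oa and Tap2 from -0.29 to 0.54. Without cell-treated library 3, the 11 genes whose values were kept were all below 0, the distal 4 from -1.17 to -0.73 and the others from -0.70 to -0.17. The value of Brd2 in that fit was not kept. Brd2 was at 234, 206 and 203 CPM in controls and at 212 and 208 CPM in cell-treated libraries 1 and 2. The difference between these stretches was not tested.

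**Figure D4:**
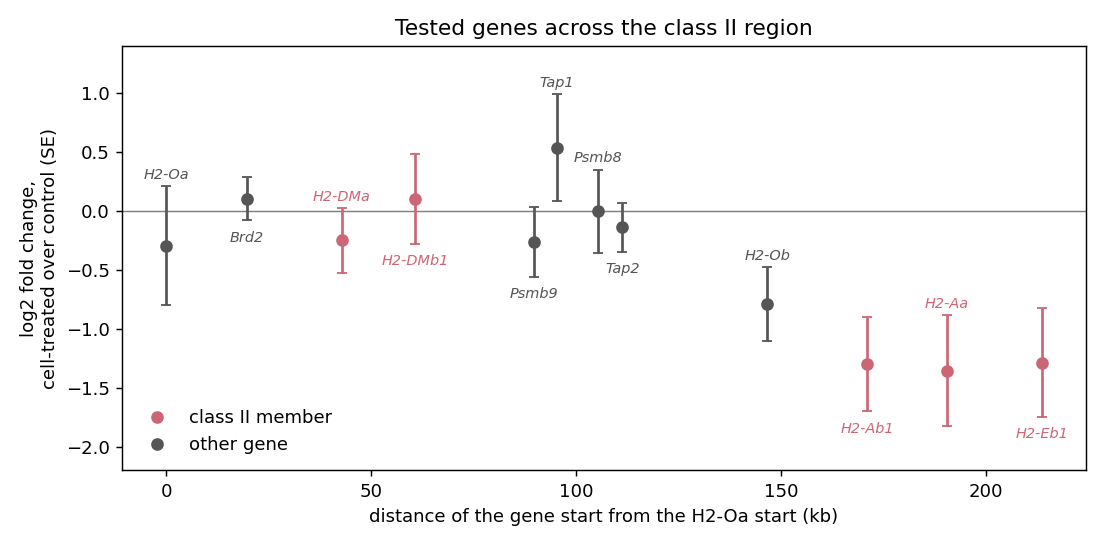
Log2 fold change of cell-treated over control libraries with its SE (vertical axis) for the 12 tested genes of the class II region over all 6 libraries, against the distance of each gene start from the H2-Oa start in kb (horizontal axis). H2-Ob, H2-Ab1, H2-Aa and H2-Eb1 at the right lie between -1.35 and -0.79, and the genes to their left between -0.29 and 0.54.

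Markers of the cells that could carry class II are given beside these values; their part in the result was not tested. The 12 microglia markers, 7 higher and 5 lower, summed to 1024 to 1315 CPM in controls and 925 to 1833 CPM in cell-treated libraries, and the highest sum was in cell-treated library 3. Cd74 per 100 CPM of these markers was 3.26, 5.65 and 9.34 in controls, against 2.37, 3.33 and 1.64 with transplanted cells. For the 3 chains together the values were 1.92, 4.12 and 6.26 in controls and 1.95, 2.35 and 0.662 in cell-treated libraries. For the DM pair they were 1.38, 1.53 and 1.95 in controls and 1.404, 1.20 and 1.35 in cell-treated libraries. Relative to microglia markers, DM thus varied less than the chains, which were lowest in cell-treated library 3.

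Plaque-associated microglia markers summed to 3050 to 3476 CPM in controls and 2175 to 2798 CPM in cell-treated libraries, with 3 of 11 higher and 8 lower. Most of the sum was Apoe, at 2441 to 2802 and 1698 to 1761 CPM. Without Apoe the sums were 609 to 674 CPM in controls and 415 to 1099.9 CPM in cell-treated libraries, highest in cell-treated library 3, and the groups overlapped. Spp1 reached 573 CPM in cell-treated library 3, against 36.6 to 105.8 elsewhere. Border-associated macrophage markers, 2 higher and 6 lower of 8 tested, summed to 27.0 to 70.7 CPM in controls and 38.0 to 77.1 in cell-treated libraries. The lowest sum was in control library 3 and the highest in cell-treated library 3, but most of the sum in every library was Stab1. Stab1 was at 62.4 CPM in cell-treated library 3, against 19.0 to 45.4 elsewhere, while Pf4 and Cd209f were at 0 there. Cell-treated library 3 was the highest for only 1 of the 8 tested markers, beside 28.7% of all genes. Dendritic cell markers, 1 higher and 4 lower of 5 tested, summed to 46.8 to 66.7 CPM in controls and 29.7 to 62.7 in cell-treated libraries. The highest of them in every library was Itgax, which plaque-associated microglia also express, at 44.9 CPM in control library 3 and 15.1 CPM in cell-treated library 3. Of the other listed dendritic markers, Zbtb46 was at 10.01 to 14.99 CPM and Flt3 at 3.11 to 11.2 CPM over the 6 libraries. By contrast, Clec9a reached at most 1.38 CPM, and Xcr1 and Ccr7 were at 0.414 CPM or less. Whether the Zbtb46 and Flt3 reads came from dendritic cells was not tested.

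B cells, which carry class II at high levels, were marked by 7 genes that summed to 35.2 to 74.4 CPM in controls and 23.9 to 75.5 in cell-treated libraries. Nearly all of it was Ighm, and Ms4a1, a B cell surface protein, was at 0.138 CPM or less in every library. The 8 T cell markers summed to 6.87 to 7.94 CPM in controls and 5.04 to 13.4 in cell-treated libraries, and Cd3e, Cd3d, Cd3g and Trbc1 were at 0 in cell-treated library 3. The 8 markers of monocytes and neutrophils summed to 26.0 to 42.5 CPM in controls and 25.1 to 35.9 in cell-treated libraries, and most of it was Csf3r. Meningeal fibroblast markers, 2 higher and 6 lower of 8, summed to 40.3 to 122.6 CPM in controls and 54.5 to 86.6 in cell-treated libraries, and choroid plexus markers to 14.4 to 25.9 and 10.9 to 29.2 CPM. The striatal markers, 10 of 10 lower, had a median log2 fold change of -1.61 and, like the chains, their highest level in control library 3. Their sum was 635 and 662 CPM in control libraries 1 and 2, against 340, 396 and 720 CPM in cell-treated libraries. Adora2a was at 17.1 and 32.2 CPM in control libraries 1 and 2, against 4.79 to 9.93 CPM in cell-treated libraries. DESeq2 called 2 of the 10, Adora2a and Ppp1r1b, beside 0.0647% of all genes. The striatal difference was thus not confined to control library 3. Without control library 3, the Cd74 log2 fold change was -0.94 and the H2-Aa log2 fold change -1.10. The H2-Ab1 log2 fold change was -0.95 and the H2-Eb1 log2 fold change -1.07.

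The genes whose pattern was most like that of Cd74, H2-Aa, H2-Ab1 and H2-Eb1 over the 6 libraries were ranked among 13083 candidates by Pearson's r with their mean standardised log2 CPM. With so few libraries the ranking is a description only. The 10 highest had r between 0.970 and 0.993 and included Cbx6, Ddx4, Dolpp1, Dact3, Cul9, Apc2, Cdk10, Speg and Jag2, and none of the 10 is on the lists of immune or microglial genes. Their differences were smaller than those of the chains: Cbx6, a Polycomb protein, ran from 436 CPM in cell-treated library 3 to 552 CPM in control library 3, with a log2 fold change of -0.22.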

How the data were processed

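Cortical mRNA of 6 libraries was sequenced after poly-A selection and random priming, per the labels' protocols. The deposited count table holds whole-number read counts per gene; HISAT2 2.0.5, featureCounts and DESeq2 are named in the submitters' processing notes, without settings. The deposited FPKM correspond to these counts over gene length and over library totals of 0.953 to 1.03 times the counted reads. No source used here gives the build; 98.3% of shared identifiers have the start and end of GENCODE M21 (GRCm38), and 2 of the 7 members do. Symbols that a spreadsheet had turned into dates were restored by identifier (11 genes). Reads of grafted human cells were not separated here.

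The test was edgeR 4.0.16 under R 4.3.3 (filterByExpr, minimum count 10 and total 15; TMM; robust quasi-likelihood F test; Benjamini-Hochberg adjustment over 17042 genes; threshold 0.05), and the script was tested on simulated data. Standard errors come from the F statistic. Alternatives used DESeq2 1.42.0, limma 3.58.1, other scalings and filters, log2(FPKM + 1) and log2(FPKM + 0.1), a replicate block and libraries left out. In DESeq2, 33 genes had no adjusted p. Members, lists and rules were chosen with earlier results of these data known. Named genes are all members, lead genes of each list, genes of smallest p, and the 10 genes most like the chains (average log2 CPM 1 or more). Some items under this rule are not reported here. Floors cover counting error only. Figures were drawn with matplotlib 3.10.9.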

Additional observations from a re-analysis of the deposited data

How the results depend on the processing

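The lower values of Cd74, H2-Aa, H2-Ab1 and H2-Eb1 kept their direction under all 16 alternatives run. The median log2 fold change of the 7 members, -1.22, ranged from -1.48 (without control replicate 1) to -0.94 (without control replicate 3) with single libraries left out and was -0.76 without control and cell-treated replicates 3; other tools, scalings and filters gave -1.24 to -1.02. H2-DMb1 and Ciita each changed sign under 2 alternatives, both without cell-treated replicate 3. The number of genes called was 0 in the main test, 1 without a filter on low counts, 11 by DESeq2 and 0 under every other alternative; no pathway gene was called in any. Single libraries left out moved the list medians from -0.30 to 0.47 for loading and processing, from 0.034 to 0.16 for transcription and turnover, from -0.42 to 0.15 for CD4 T cells and costimulation (-0.52 without both replicates 3) and from -0.22 to 0.31 for class I. No label says that the replicate number marks a shared litter or day, so the numbers were not taken as pairs. The deviations of same-numbered libraries correlated at -0.28, 0.082 and 0.073, which with 3 libraries per group cannot show whether they were paired. With a replicate block 0 genes were called and the median log2 fold change of the 7 class II members was -1.18. At 10 to 53 reads per library, Ciita is limited by depth.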

Other observations

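The pair of GNAAC and ATTGG found upstream of H2-Aa, H2-Eb1, H2-DMb1, H2-Oa, H2-Ob and H2-Eb2 was also looked up across all genes with a RefSeq promoter. It occurred upstream of 225 genes on either strand, of which 108 were tested in the cortex. Of these 49 had lower and 59 higher values in cell-treated libraries, at a median log2 fold change of 0.025. H2-Aa and H2-Eb1 are members chosen with their differences known, so their p-values are not used here. Of the other tested genes with the pair, H2-Ob and Epha10 (lower) and Sdc1 (higher) had an unadjusted p under 0.05 in edgeR. The shares over all genes were 1.06% lower and 0.939% higher. None passed after adjustment. Epha10, an ephrin receptor, was at 68.3, 79.3 and 83.1 CPM in controls, against 53.8, 58.6 and 50.003 CPM with transplanted cells. Sdc1, a cell-surface proteoglycan, reached 34.6 CPM in cell-treated library 3 and at most 2.51 CPM elsewhere. The letters alone thus marked many genes outside class II.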
